A study of Mus musculus with 21 samples.

Results

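M11GFP (M11) and M12GFP (M12) are a pair of cell lines grown out of spontaneous lung metastases of the mouse breast cancer line E0771, and they were compared here, each and jointly, with E0771 cells that carry an empty expression vector. The comparison used 9 of the 21 libraries of the series, taken by their sample titles: 3 of M11, 3 of M12 and 3 of the empty vector line. Of 15432 genes tested, 5773 were past the threshold in both lines in the same direction. Of these, 1614 also differed at least 2-fold in both lines with no overlap between the 6 metastasis libraries and the 3 empty vector libraries. They are called the separating genes below.

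All cells carry GFP. M11 and M12 are labelled as untreated, and nothing in the labels says that they carry a vector. The empty vector line (E0771GFP-EV) is E0771GFP that received a vector without an insert, in a study of cells that overexpress ZBTB18, a zinc finger repressor of transcription. Parental E0771GFP cells, untreated and without vector, are the other non-metastasis reference of the series, and their 3 libraries are printed beside the comparison where they place a gene. The other libraries came from cells with ZBTB18 overexpression, and some of those also had a doxycycline-inducible TGFBR2 with TGF-β1 or vehicle. They entered the filter of genes, the scaling and the shared estimate of spread, and their library make-up is given below. All lines were grown in culture, and RNA was selected for polyA tails before a stranded library was made. Each of M11, M12 and the empty vector cells is 1 line, so a difference between lines holds for these lines and cannot be told apart from the drift of a single culture. The labels do not say that the 3 libraries of a line were separate cultures, and p-values then measure only the spread between these libraries, which may be technical.

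Cells that form a metastasis have left the primary tumour, survived in the circulation and grown in a distant organ, and lines cultured from such a lesion carry what was kept from that history and what changed in culture. Breast carcinoma cells often lose epithelial keratins and junctions and gain vimentin, and TGF-β signalling, matrix enzymes, integrins and growth factors are the pathways most often studied in that change. Genes of blood cell signalling, such as the adaptors and integrins used by leukocytes, are normally silent in mammary epithelium.

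Levels are CPM, read counts scaled to a common library size, and changes are log2 fold changes of a metastasis line minus empty vector with the SE. A gene was called past the threshold at an adjusted p under 0.05 in edgeR's quasi-likelihood test with Benjamini-Hochberg adjustment over all genes tested, and all adjusted p-values here come from that test. Genes that mark mammary carcinoma cells were checked first. Vim, a mesenchymal filament gene, was abundant in all 9 libraries at 2174 CPM or more, Krt8 reached at least 107 CPM, and the epithelial adhesion gene Epcam was at most 3.49 CPM. Krt18, the keratin that pairs with Krt8, was low throughout, at 0.378, 0.0939 and 0.529 CPM in M11, 4.16, 2.15 and 2.71 CPM in M12, and 0.0125, 0 and 0.0264 CPM with empty vector, so Krt8 stood without its partner at a like level.

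Pik3ap1, Hcls1 and Gldc, picked as markers of the metastasis lines from earlier results of these data, were higher in both lines and near 0 with empty vector. Pik3ap1 (ENSMUSG00000025017.10, chr19:41272377-41385102) encodes the adaptor that links the B cell receptor to PI3-kinase. Its level was 6.99, 6.33 and 6.59 CPM in M11, 21.8, 20.4 and 14.1 CPM in M12, and 0.0502, 0.0547 and 0.0264 CPM with empty vector. Hcls1 (ENSMUSG00000022831.14, chr16:36934983-36963212) encodes an actin-binding substrate of Src kinases in blood cells. That gene stood at 11, 12 and 12.5 CPM in M11, 23, 26.8 and 16.9 CPM in M12, and 0.339, 0.137 and 0.317 CPM with empty vector. Gldc (ENSMUSG00000024827.10, chr19:30098447-30175429) encodes glycine decarboxylase, the enzyme that opens the mitochondrial glycine cleavage system. Libraries held 5.19, 5.14 and 4.89 CPM in M11, 14.3, 17.9 and 15.4 CPM in M12, and 0.0627, 0.109 and 0.0528 CPM with empty vector. For these genes, all 6 metastasis libraries lay above all 3 empty vector libraries, and every M12 library lay above every M11 library. The log2 fold change of Pik3ap1 was 7.12 (SE 0.35, adjusted p = 5.42e-12) in M11 and 8.61 (SE 0.35, adjusted p = 6.68e-14) in M12. Hcls1 changed by 5.40 (SE 0.32, adjusted p = 8.95e-11) in M11 and 6.31 (SE 0.32, adjusted p = 2.83e-12) in M12. Gldc changed by 6.09 (SE 0.44, adjusted p = 1.59e-09) in M11 and 7.74 (SE 0.44, adjusted p = 1.24e-11) in M12. For both lines jointly the changes were 7.87 (SE 0.34, adjusted p = 3.4e-13), 5.85 (SE 0.31, adjusted p = 5.77e-12) and 6.92 (SE 0.42, adjusted p = 4.35e-11) in the same order. Parental cells were also near 0, at most 0.0228 CPM for Pik3ap1, 0.0566 CPM for Hcls1 and 0.0912 CPM for Gldc.

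The 250 bases upstream of these 3 genes (RefSeq, build GRCm38.p6, read 5′ to 3′ on the gene's strand) are shown because the genes moved together from near silence. Capitals mark each CG, the dinucleotide that is methylated in mammalian DNA; CG reads the same on both strands. The windows are chr19:41385103-41385352 (minus strand) for Pik3ap1, chr16:36934733-36934982 (plus strand) for Hcls1 and chr19:30175442-30175691 (minus strand) for Gldc.
Pik3ap1: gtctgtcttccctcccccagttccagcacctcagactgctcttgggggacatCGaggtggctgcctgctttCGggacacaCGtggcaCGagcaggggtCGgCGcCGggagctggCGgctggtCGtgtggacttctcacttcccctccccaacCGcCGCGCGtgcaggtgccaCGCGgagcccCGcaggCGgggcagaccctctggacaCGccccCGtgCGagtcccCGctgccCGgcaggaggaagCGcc
Hcls1: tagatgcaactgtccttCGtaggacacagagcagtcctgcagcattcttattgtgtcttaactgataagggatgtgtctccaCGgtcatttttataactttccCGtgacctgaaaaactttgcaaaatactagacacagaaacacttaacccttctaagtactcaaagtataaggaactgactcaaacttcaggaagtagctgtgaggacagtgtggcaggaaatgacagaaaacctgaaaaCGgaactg
Gldc: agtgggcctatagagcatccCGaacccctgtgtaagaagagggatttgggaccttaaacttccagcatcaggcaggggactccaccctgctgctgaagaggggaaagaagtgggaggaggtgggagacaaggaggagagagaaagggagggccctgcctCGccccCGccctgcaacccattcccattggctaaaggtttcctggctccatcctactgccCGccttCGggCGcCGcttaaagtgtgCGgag
The Pik3ap1 window held 23 CG, the Gldc window 8 and the Hcls1 window 4. Of 27025 windows of the same length, 91.7% held at least 1 CG and the median was 6. Those windows include genes not tested here. Over the 10284 tested genes that had a window the median was 15, above the counts of Gldc and Hcls1. The 3 genes did not share a CG-rich or a CG-poor start, and no methylation was measured here.

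In M11 against empty vector, 4154 genes were higher and 3959 lower, 52.6% of those tested. In M12, 4818 were higher and 4546 lower, 60.7%. The joint contrast of both lines called 4737 higher and 4631 lower, also 60.7%. Both lines were past the threshold in the same direction for 3002 higher genes (19.5%) and 2771 lower genes (18%), and for 295 genes they went opposite ways. The separating genes were 1299 higher (8.42%) and 315 lower (2.04%). Since M11 and M12 share the same 3 empty vector libraries, a deviation of those libraries moves both comparisons together.

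**Figure D1:**
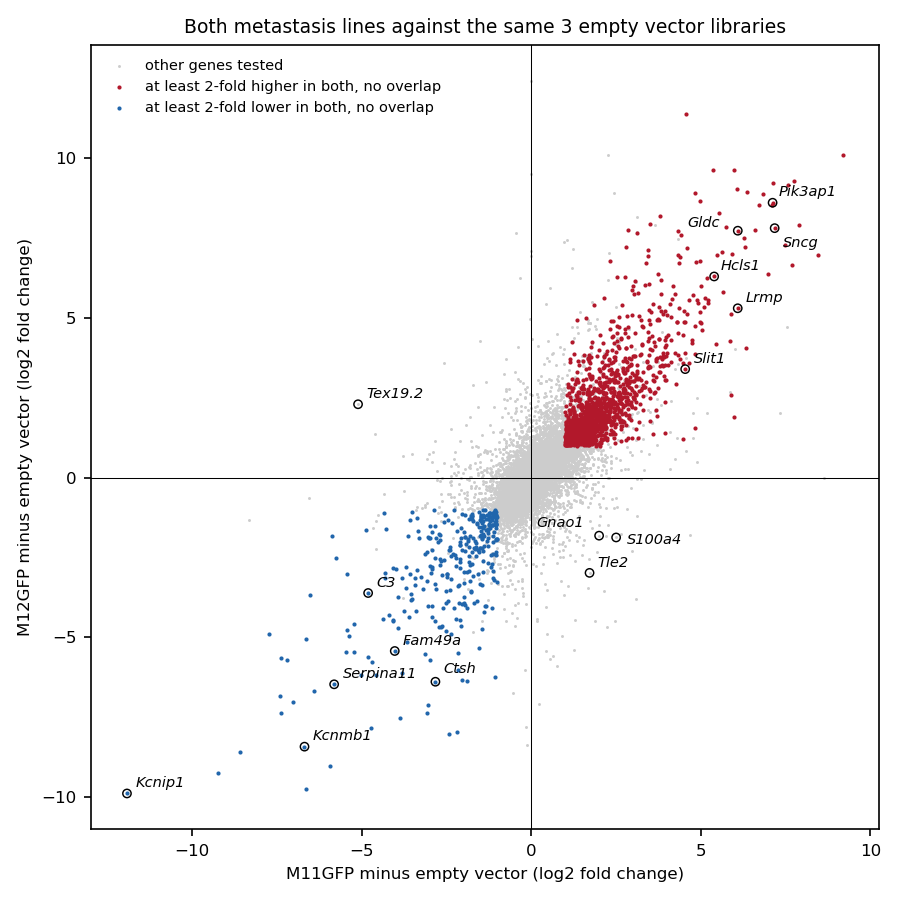
Log2 fold change against empty vector of each of 15432 genes tested, in M11 (x axis) and M12 (y axis). The 1299 separating genes that were higher in both lines are red, the 315 that were lower are blue, and circled genes are described in the text. Both axes use the same 3 empty vector libraries, so points on the diagonal are no independent support, and the position of genes with almost no reads in a group depends on the prior count.

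The 12 genes ranked highest among separating genes of at least 5 CPM in both lines, by the smaller of the 2 fold changes, were Sncg, Pik3ap1, Faim2, Gldc, Hcls1, Lrmp, Bmp7, Cfap58, Sla2, Loxl2, Itgb2 and Pcdhgb1. Of these, 5 are best known from blood cells. Besides Pik3ap1 and Hcls1 they were Lrmp, Sla2 and Itgb2. Lrmp (ENSMUSG00000030263.13, chr6:145115653-145174934), a membrane protein of the endoplasmic reticulum in lymphoid cells, had 23.6, 23.1 and 19.7 CPM in M11, 13.1, 15.7 and 9.86 CPM in M12, and 0.389, 0.164 and 0.37 CPM with empty vector. Its change was 6.09 (SE 0.33, adjusted p = 2.69e-11) in M11 and 5.31 (SE 0.33, adjusted p = 5.47e-11) in M12. Sla2 (ENSMUSG00000027636.11, chr2:156872457-156887192), an adaptor that dampens antigen receptor signalling, had 7.86, 7.23 and 7.78 CPM in M11, 19.3, 19.9 and 19.104 CPM in M12, and 0.477, 0.574 and 0.264 CPM with empty vector. This gave 4.1 (SE 0.19, adjusted p = 2.15e-12) in M11 and 5.45 (SE 0.19, adjusted p = 7.58e-15) in M12. Itgb2 (ENSMUSG00000000290.13, chr10:77530252-77565708), the β2 chain of leukocyte integrins, had 17.2, 17.8 and 15.8 CPM in M11, 42.3, 37.9 and 40.6 CPM in M12, and 1.23, 1.5 and 1.11 CPM with empty vector, with changes of 3.73 (SE 0.18, adjusted p = 4.1e-12) in M11 and 4.98 (SE 0.19, adjusted p = 2.03e-14) in M12. None of the 3 genes overlapped between the metastasis and empty vector libraries. M12 was higher than M11 for Sla2 and Itgb2, and M11 was higher for Lrmp. Sla2 overlaps Rab5if on the opposite strand, which averaged 97.1 CPM in the metastasis lines and 101 CPM with empty vector. Whether the counting used strand is not given in the sources used here.

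Other genes of the 12 are known from other tissues. Sncg (ENSMUSG00000023064.4, chr14:34370274-34374789), γ-synuclein, measured 5.83, 7.01 and 5.58 CPM in M11, 7.49, 13.2 and 7.94 CPM in M12, and 0.0125, 0.109 and 0.0264 CPM with empty vector, with changes of 7.18 (SE 0.50, adjusted p = 8.75e-10) in M11 and 7.82 (SE 0.49, adjusted p = 6.31e-11) in M12. Faim2 (ENSMUSG00000023011.8, chr15:99497012-99528165), an inhibitor of Fas-mediated death in neurons, measured 12.6, 11.4 and 16.6 CPM in M11, 35, 30.2 and 26.4 CPM in M12, and 0.113, 0.246 and 0.0793 CPM with empty vector, with changes of 6.59 (SE 0.36, adjusted p = 3.25e-11) in M11 and 7.76 (SE 0.36, adjusted p = 1.03e-12) in M12. Cfap58 (ENSMUSG00000046585.9, chr19:47937675-48035387), a cilia and flagella protein, measured 9.2, 8.8 and 7.41 CPM in M11, 18.6, 19.246 and 11.5 CPM in M12, and 0.439, 0.164 and 0.608 CPM with empty vector, with changes of 4.36 (SE 0.34, adjusted p = 3.66e-09) in M11 and 5.32 (SE 0.34, adjusted p = 8.92e-11) in M12. All 3 were under 1 CPM in the empty vector libraries and did not overlap with the lines. Parental cells were also low, with at most 0.17 CPM for Sncg, 0.274 CPM for Faim2 and 0.765 CPM for Cfap58. Pcdhgb1 (ENSMUSG00000103037.1, chr18:37680233-37841870), a γ-protocadherin of cell adhesion, measured 8.08, 12.3 and 13.6 CPM in M11, 4.37, 6.42 and 7.63 CPM in M12, and 0.439, 0.465 and 0.661 CPM with empty vector, with changes of 4.46 (SE 0.29, adjusted p = 3.23e-10) in M11 and 3.59 (SE 0.29, adjusted p = 2.07e-09) in M12. It shares its 3′ exons with the other γ-protocadherins, so its level depends on how RSEM divided shared reads.

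For Bmp7 and Loxl2, and also for Itgb2 with 2.86, 1.73 and 2.1 CPM, every parental library lay above every empty vector library and below the lines. Bmp7 (ENSMUSG00000008999.7, chr2:172868012-172940321), a secreted ligand of the TGF-β superfamily, measured 3.99, 4.48 and 6.64 CPM in M11, 9.83, 10.7 and 11.1 CPM in M12, and 0.0627, 0.082 and 0.317 CPM with empty vector. Parental libraries had 1.05, 1.07 and 0.738 CPM, between the lines and empty vector. Its changes were 5.18 (SE 0.43, adjusted p = 2.33e-08) in M11 and 6.25 (SE 0.43, adjusted p = 7.35e-10) in M12. Loxl2 (ENSMUSG00000034205.16, chr14:69609068-69695834), a lysyl oxidase that cross-links collagen, measured 68.5, 77.4 and 88.1 CPM in M11, 134, 73.3 and 143 CPM in M12, and 6.11, 6.59 and 4.41 CPM with empty vector. Parental cells had 45.5, 51.9 and 54.5 CPM and lay below every metastasis library. Against empty vector Loxl2 changed by 3.77 (SE 0.22, adjusted p = 4.28e-10) in M11 and 4.35 (SE 0.22, adjusted p = 2.36e-11) in M12, and both lines jointly differed from parental by 0.91 (SE 0.17, adjusted p = 0.000199). Empty vector minus parental was -3.14 (SE 0.21, adjusted p = 3.57e-09).

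Among separating genes of at least 5 CPM with empty vector, the 12 that fell furthest by the smaller of the 2 fold changes were Kcnip1, Kcnmb1, Serpina11, Nhsl2, C1s1, Fam49a, Etl4, C3, Aqp1, Abcg2, Chn1 and Ctsh. Kcnip1 (ENSMUSG00000053519.16, chr11:33629339-33993152), a calcium-binding partner of Kv4 potassium channels, had no read in any M11 library and 1 read in M12, against 11.3, 10.1 and 8.46 CPM with empty vector. It was at least 349-fold lower in M11, taking 3 counts over the group as the floor, and in M12 the ratio of empty vector to M12 was 1300 (95% interval 232 to 51200, counting error only). Kcnmb1 (ENSMUSG00000020155.2, chr11:33963013-33973641), the β1 subunit of the calcium-activated BK channel, lies inside the Kcnip1 gene on the other strand. It had 0.0445, 0.0939 and 0.0407 CPM in M11, 0.0297, 0 and 0.0221 CPM in M12, and 7.46, 4.92 and 6.63 CPM with empty vector. M12 held 2 Kcnmb1 reads, and the ratio of empty vector to M12 was 418 (115 to 3450). In M11 its log2 fold change was -6.68 (SE 0.38, adjusted p = 2.15e-10). Parental cells held 1 Kcnip1 read and no Kcnmb1 read, so among these 4 lines the pair was above 1 CPM in the empty vector cells only. Reads of overlapping genes cannot be told apart if strand was not used in counting.

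Of these, C3, C1s1 and Serpina11 encode secreted proteins. C3 (ENSMUSG00000024164.15, chr17:57203970-57228136), the central complement protein, had 2.2, 3.6 and 2.61 CPM in M11, 4.1, 12.2 and 2.54 CPM in M12, and 76.5, 83.3 and 73.6 CPM with empty vector. C1s1 (ENSMUSG00000038521.17, chr6:124530345-124542359), a protease of the first complement component, had 0.891, 0.845 and 0.448 CPM in M11, 0.594, 0.623 and 0.463 CPM in M12, and 12.7, 13.6 and 11.5 CPM with empty vector. Serpina11 (ENSMUSG00000063232.16, chr12:103980243-103989957), a member of the serpin family, had 0.0891, 0.0313 and 0.163 CPM in M11, 0, 0 and 0.154 CPM in M12, and 5.64, 4.89 and 4.84 CPM with empty vector. Each was lower in all 6 metastasis libraries than in any empty vector library, although M12 replicate 2 reached 12.2 CPM for C3. C3 changed by -4.81 (SE 0.88, adjusted p = 0.000427) in M11 and -3.61 (SE 0.79, adjusted p = 0.00125) in M12, C1s1 by -4.06 (SE 0.40, adjusted p = 1.74e-07) in M11 and -4.49 (SE 0.41, adjusted p = 2.87e-08) in M12 and Serpina11 by -5.81 (SE 0.41, adjusted p = 1.13e-09) in M11 and -6.47 (SE 0.42, adjusted p = 1.07e-10) in M12. Parental cells sat with empty vector for Serpina11, at 5.52, 5.11 and 4.37 CPM. They lay below empty vector but above the lines for C3, at 44.5, 37.1 and 28.7 CPM, and for C1s1, at 5.32, 3.81 and 2.56 CPM.

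Transporters and a lysosomal protease followed the same direction. Aqp1 (ENSMUSG00000004655.5, chr6:55336432-55348555), a water channel, had 16.1, 19.3 and 21.3 CPM in M11, 10.7, 4.9 and 13.2 CPM in M12, and 157, 190.3 and 113 CPM with empty vector, with changes of -3.03 (SE 0.28, adjusted p = 3.43e-07) in M11 and -4.0 (SE 0.30, adjusted p = 1.24e-08) in M12. Abcg2 (ENSMUSG00000029802.13, chr6:58584523-58695676), an efflux pump for drugs and porphyrins, had 1.69, 1.66 and 1.71 CPM in M11, 0.594, 0.365 and 0.904 CPM in M12, and 13.9, 12.2 and 12.4 CPM with empty vector, with changes of -2.92 (SE 0.22, adjusted p = 2.55e-09) in M11 and -4.36 (SE 0.24, adjusted p = 9.48e-12) in M12. Ctsh (ENSMUSG00000032359.14, chr9:90054152-90076089), cathepsin H, had 1.56, 1.25 and 0.57 CPM in M11, 0.119, 0.0859 and 0.0882 CPM in M12, and 7.94, 9.32 and 7.48 CPM with empty vector, with changes of -2.82 (SE 0.27, adjusted p = 1.29e-07) in M11 and -6.39 (SE 0.36, adjusted p = 5.54e-11) in M12. Ranges did not overlap, and M12 was lower than M11 for each gene. Parental levels were 122, 98.7 and 96.2 CPM for Aqp1 and 10.2, 6.41 and 6.48 CPM for Abcg2, both above every metastasis library. Parental Ctsh was 2.29, 1.89 and 1.62 CPM, slightly above M11 and below every empty vector library.

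Cytoskeletal regulators completed the group. Fam49a (ENSMUSG00000020589.17, chr12:12262139-12380965), of the CYRI family that binds active Rac, had 1.85, 2.32 and 2.52 CPM in M11, 0.921, 0.623 and 0.971 CPM in M12, and 38.2, 32.3 and 37.1 CPM with empty vector, and changed by -4.02 (SE 0.21, adjusted p = 9.7e-12) in M11 and -5.43 (SE 0.23, adjusted p = 1.18e-13) in M12. Chn1 (ENSMUSG00000056486.18, chr2:73610660-73775346), a GTPase-activating protein for Rac, had 1.42, 0.939 and 2.12 CPM in M11, 1.6, 1.29 and 1.76 CPM in M12, and 11, 12.8 and 9.78 CPM with empty vector, and changed by -2.93 (SE 0.23, adjusted p = 3.66e-09) in M11 and -2.85 (SE 0.22, adjusted p = 1.49e-09) in M12. Etl4 (ENSMUSG00000036617.16, chr2:19909780-20810713), known in mice for intervertebral disc development, had 0.49, 0.344 and 0.326 CPM in M11, 0.416, 0.129 and 0.176 CPM in M12, and 6.42, 5.36 and 6.39 CPM with empty vector, and changed by -3.93 (SE 0.30, adjusted p = 2.74e-09) in M11 and -4.72 (SE 0.31, adjusted p = 1.36e-10) in M12. Nhsl2 (ENSMUSG00000079481.11, chrX:101849385-102092055), a relative of the actin regulator NHS, had 0.0891, 0.0626 and 0.244 CPM in M11, 0.208, 0.043 and 0.331 CPM in M12, and 6.59, 4.15 and 4.97 CPM with empty vector, and changed by -5.42 (SE 0.49, adjusted p = 2.98e-08) in M11 and -4.76 (SE 0.44, adjusted p = 1.78e-08) in M12. None of the 4 overlapped. Etl4 in parental cells was 0.396, 0.547 and 0.398 CPM, below every empty vector library, so that of these 4 lines empty vector alone was above 1 CPM. Parental cells had 7.42, 6.22 and 6.65 CPM for Fam49a, 8.83, 6.41 and 6.16 CPM for Chn1, and 0.906, 0.638 and 0.937 CPM for Nhsl2. Each of these lay between the metastasis and empty vector libraries.

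**Figure D2:**
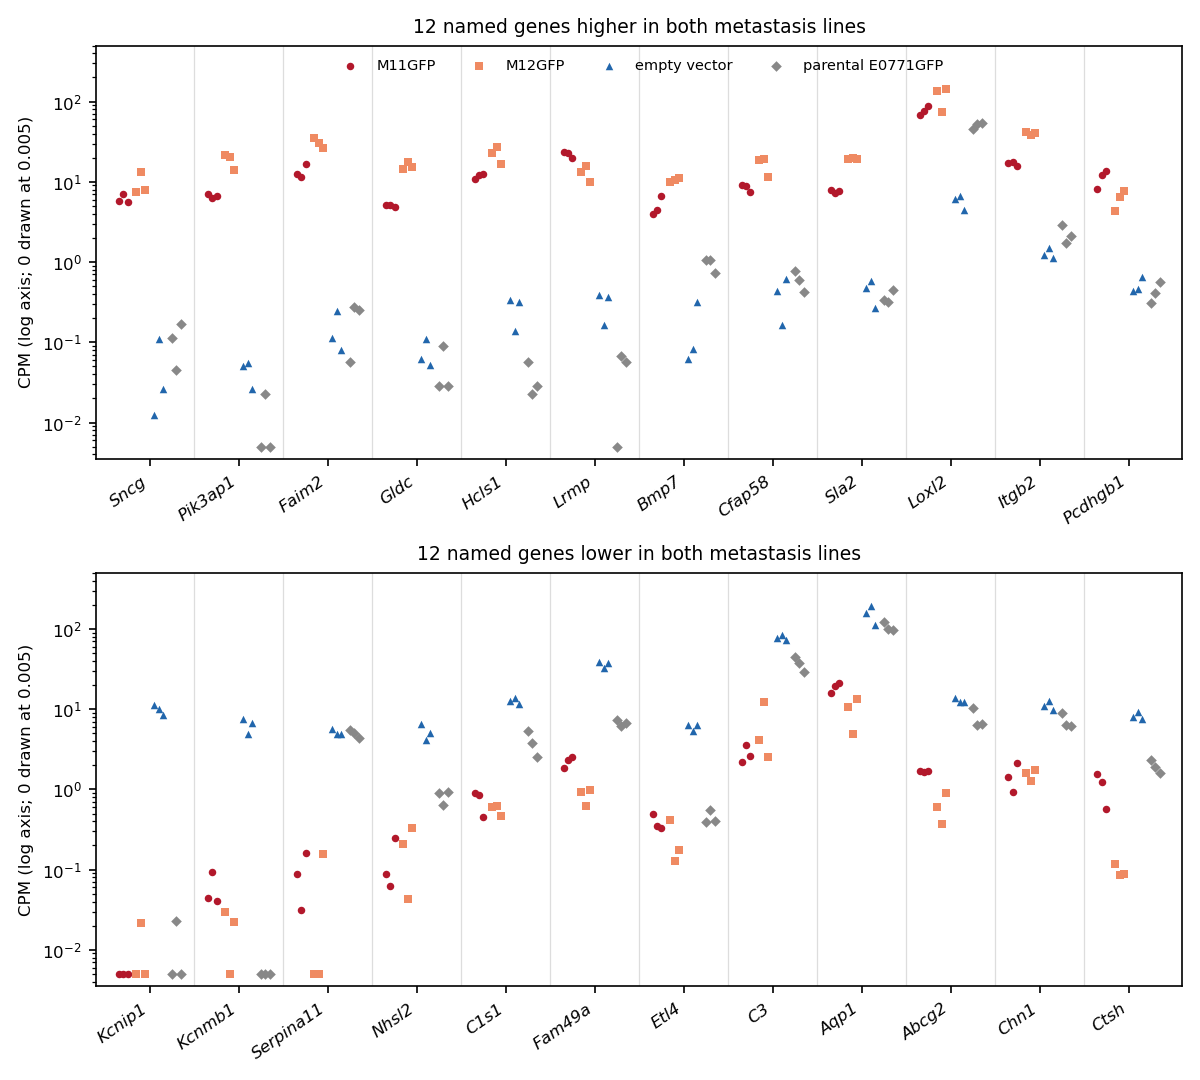
CPM on a log axis of the 12 highest-ranked (upper panel) and 12 lowest-ranked (lower panel) named genes, in 3 libraries each of M11, M12, empty vector and parental cells; every point is 1 library and values of 0 are drawn at 0.005. The metastasis libraries are separated from empty vector in every column, and for Loxl2, Kcnip1, Kcnmb1 and Etl4 the parental points lie near those of the lines.

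Parental cells gave a view of which separating genes depend on the choice of reference. On a log2(CPM + 0.1) scale, the parental mean lay nearer to the mean of the lines than to empty vector in 261 of the 650 protein-coding separating genes that were higher (40.2%) and in 127 of the 278 that were lower (45.7%). Over all 12362 protein-coding genes tested it was 57.6%. With every class of gene counted, it was 747 of the 1299 higher (57.5%) and 148 of the 315 lower (47%). The share over all 15432 genes tested was 59.5%. The genes were chosen for their distance from empty vector, so these shares describe the lists and were not tested.

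The lines also differed from each other within the separating genes. M11 and M12 differed, past the threshold, for 321 of the 1299 higher genes (24.7%), of which M12 was above M11 in 245. For the 315 lower genes they differed in 97 (30.8%), and M11 was above M12 in 71. Over all genes tested, 5474 differed between M11 and M12 (35.5%). Where the lines differed, M12 more often lay farther from empty vector than M11.

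Among lists of genes grouped by function, blood cell signalling had the highest share of nuclear genes that rose in both lines. It covered adaptors, kinases, actin regulators and integrins of leukocytes. Of 47 members 28 were tested, 14 rose in both (50%) and 3 fell in both (10.7%), against 19.5% and 18% of all genes tested. Median log2 fold changes were 0.94 in M11 and 1.19 in M12, against 0.02 and 0.03 over all genes. The list was written with Pik3ap1 and Hcls1 known to be high. Members with few reads in every group were not tested. Pik3ap1, near 0 in empty vector and parental cells, was tested through the groups where it was high. The rank of the list is therefore no independent support. Lcp1, the actin bundler L-plastin, had 15.4, 15.3 and 11.6 CPM in M11, 346, 338 and 264 CPM in M12, and 3.34, 2.38 and 2.59 CPM with empty vector, and rose by 2.32 (SE 0.20, adjusted p = 2.2e-08) in M11 and 6.80 (SE 0.22, adjusted p = 7.58e-15) in M12. Coro1a, a leukocyte actin regulator, had 2.09, 2.54 and 2.12 CPM in M11, 3.33, 6.21 and 3.2 CPM in M12, and 0.301, 0.164 and 0.185 CPM with empty vector, and rose by 3.27 (SE 0.41, adjusted p = 1.91e-06) in M11 and 4.19 (SE 0.41, adjusted p = 3.13e-08) in M12. Ikzf2, the transcription factor Helios, had 10.1, 11.5 and 7.41 CPM in M11, 11.4, 12.4 and 14.3 CPM in M12, and 0.828, 0.765 and 1.06 CPM with empty vector, and rose by 3.46 (SE 0.17, adjusted p = 6.77e-12) in M11 and 3.85 (SE 0.17, adjusted p = 4.04e-13) in M12. Each stood higher in all 6 metastasis libraries than in any empty vector library, and Lcp1 differed most between the lines. Others that rose were the integrin activator Fermt3 (1.80 in M11 and 3.13 in M12), the integrin chains Itgal (1.76 in M11 and 2.20 in M12) and Itgb7 (1.78 in M11 and 3.11 in M12) and the actin nucleation factor Was (2.86 in M11 and 2.30 in M12). The list did not move as a block. Vav1, an exchange factor for Rac, fell, with changes of -3.35 (SE 0.50, adjusted p = 1.27e-05) in M11 and -1.25 (SE 0.39, adjusted p = 0.00928) in M12. Lcp2, the adaptor SLP-76, fell, with changes of -3.37 (SE 0.59, adjusted p = 9.02e-05) in M11 and -2.89 (SE 0.54, adjusted p = 0.000106) in M12. Pou2af1, a B cell coactivator, rose in M11 and fell in M12 (2.14 in M11 and -3.55 in M12).

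Markers that define blood cells were set beside this list. The general leukocyte gene Ptprc had 0 reads in M11, 1 in M12 and 5 with empty vector, and Cd3e, Cd8a, Ms4a1, S100a9, Csf3r and C1qc had none in the 9 libraries. In all, 12 of 34 markers had no read, 7 were tested, 1 rose in both lines (Cd79a) and 1 fell in both (Itgax). For this and the marker lists below, 19.5% of all genes tested rose and 18% fell in both lines. Their summed level was 18 to 23.4 CPM in M11, 34.8 to 87.8 CPM in M12 and 19.7 to 21.1 CPM with empty vector. Cd68, a lysosomal glycoprotein of macrophages that other cells also express, made up most of the M12 sum at up to 69.4 CPM, and Cd79a, a chain of the B cell receptor, had 2.69, 2.66 and 3.13 CPM in M11, 8.41, 7.95 and 7.7 CPM in M12, and 0.1, 0.137 and 0.238 CPM with empty vector. Of 24 lung epithelial markers, 8 were tested and 2 rose and 2 fell in both lines; Sftpc had no read in the 6 metastasis libraries, Scgb1a1 had none in the 9 libraries, and sums were 343 to 466 CPM in M11, 224 to 330 CPM in M12 and 393 to 432 CPM with empty vector. Of 22 endothelial markers, 13 were tested and 5 rose and 2 fell in both lines. Only 1 rose with a filter of 1 CPM in 3 libraries or on log2(TPM + 1), and 2 on log2(TPM + 0.1). Cldn5 had no read and Cdh5 was at most 0.733 CPM. Icam2 had 1.47 to 2.22 CPM in M11, 4.04 to 5.47 CPM in M12 and 0.273 to 0.502 CPM with empty vector. Kdr, Mmrn2 and Lyve1 also rose, to at most 2.05 CPM. Pecam1 had 3.12 to 3.16 CPM in M11, 0.287 to 0.43 CPM in M12 and 0.246 to 0.449 CPM with empty vector. Eng, the most abundant, had 80.4 to 110 CPM in M11, 51.8 to 80.4 CPM in M12 and 113 to 125 CPM with empty vector. Sums were 123 to 155 CPM in M11, 95.7 to 120 CPM in M12 and 161 to 173 CPM with empty vector. Of 20 fibroblast markers, 8 were tested and 2 rose and 0 fell in both lines. Col1a2 and Dcn had 3 and 2 reads in M11, none in M12, and 9 and 1 with empty vector. Col3a1 and Gsn were the most abundant of the list. Col3a1 had 589 to 797 CPM in M11, 135 to 276 CPM in M12 and 143 to 190 CPM with empty vector. Gsn had 466 to 562 CPM in M11, 621 to 767 CPM in M12 and 477 to 505 CPM with empty vector. Leaving out 1 library took blood markers that fell to 0 (M11 replicate 2), endothelial markers that fell to 1 (M11 replicate 1, M11 replicate 2 or empty vector replicate 3) and lung markers that rose to 1 (M12 replicate 2 or 3, or empty vector replicate 1 or 3). Fibroblast sums were 1179 to 1518 CPM in M11, 972 to 1046 CPM in M12 and 771.4 to 848 CPM with empty vector. The part of other cell types in the changed genes was not tested.

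Of the 4 glycine cleavage genes, Gldc and Amt rose in both lines. Amt, which encodes the aminomethyltransferase that acts with Gldc, had 2.36, 2.38 and 1.63 CPM in M11, 13.2, 8.94 and 14.1 CPM in M12, and 0.138, 0.601 and 0.581 CPM with empty vector, and rose by 2.43 (SE 0.37, adjusted p = 1.76e-05) in M11 and 4.92 (SE 0.36, adjusted p = 6.88e-10) in M12. The other subunits, Gcsh and Dld, were at 146 ± 16.8 CPM in M11, 132 ± 22.2 CPM in M12 and 148 ± 10.2 CPM with empty vector (SD, n = 3 each) and 257 ± 18 CPM in M11, 294 ± 14.8 CPM in M12 and 287 ± 15.5 CPM with empty vector (SD, n = 3 each). Neither was past the threshold in both lines. Of 28 tested genes of serine, glycine and one-carbon metabolism, 4 rose in both lines (14.3%) and 11 fell in both (39.3%), against 19.5% and 18% of all genes tested. The mitochondrial serine hydroxymethyltransferase gene Shmt2 fell, with changes of -0.77 (SE 0.11, adjusted p = 7.36e-06) in M11 and -0.68 (SE 0.11, adjusted p = 1.99e-05) in M12. Sardh, sarcosine dehydrogenase, had 2.58, 4.13 and 4.23 CPM in M11, 0.743, 0.279 and 1.61 CPM in M12, and 13.5, 14.6 and 14 CPM with empty vector, and fell, with changes of -1.97 (SE 0.27, adjusted p = 7.94e-06) in M11 and -3.99 (SE 0.31, adjusted p = 3.52e-09) in M12. Psat1, of serine synthesis, rose by 0.36 (SE 0.09, adjusted p = 0.00326) in M11 and 0.66 (SE 0.09, adjusted p = 5.11e-06) in M12, while Phgdh, the first enzyme of that pathway, was lower in M11 and higher in M12 (-0.39 in M11 and 0.24 in M12).

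TGF-β response genes were more often lower than higher in the lines. Of 31 tested, 13 fell in both lines (41.9%) and 3 rose in both (9.68%), against 18% and 19.5% of all genes tested. The 3 that rose were 1 without M12 replicate 1, without empty vector replicate 1 or without empty vector replicate 2. Ccn4, a matricellular protein, had 2.49, 1.85 and 3.38 CPM in M11, 3.24, 2.02 and 3.75 CPM in M12, and 21.1, 21.5 and 17.9 CPM with empty vector, and fell, with changes of -2.99 (SE 0.20, adjusted p = 7.99e-10) in M11 and -2.75 (SE 0.20, adjusted p = 4.54e-10) in M12. Id3, an inhibitor of helix-loop-helix factors, had 30.3, 20.3 and 38.8 CPM in M11, 22.6, 25.5 and 24.6 CPM in M12, and 73.5, 78.3 and 103 CPM with empty vector, and fell, with changes of -1.52 (SE 0.33, adjusted p = 0.00122) in M11 and -1.81 (SE 0.33, adjusted p = 0.000211) in M12. Ccn2, a classical target of the pathway, fell, with changes of -1.44 (SE 0.40, adjusted p = 0.00613) in M11 and -1.93 (SE 0.41, adjusted p = 0.000546) in M12. No library of the lines reached the empty vector range for these genes. Ltbp2, a matrix protein related to the latent TGF-β binding proteins, went the other way with 2.54, 3.38 and 3.5 CPM in M11, 2.02, 3.18 and 2.01 CPM in M12, and 0.64, 0.683 and 0.819 CPM with empty vector and a rise of 2.14 (SE 0.32, adjusted p = 1.51e-05) in M11 and 1.76 (SE 0.32, adjusted p = 7.54e-05) in M12. Against parental cells the median of the list was 0.17 for both lines jointly, and empty vector minus parental was 0.56.

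Receptors and the regulator the series is about were measured in every library. Zbtb18 had 39.5, 32.7 and 31.8 CPM in M11, 53.8, 70.6 and 53 CPM in M12, and 24.1, 25.6 and 25.7 CPM with empty vector, all metastasis libraries being higher, and rose by 0.47 (SE 0.11, adjusted p = 0.00102) in M11 and 1.24 (SE 0.11, adjusted p = 5.76e-09) in M12. Tgfbr2, the receptor that binds TGF-β, had 20.2, 21.6 and 22.2 CPM in M11, 21.3, 17.7 and 18.9 CPM in M12, and 27, 26.6 and 26.1 CPM with empty vector, and fell, with changes of -0.32 (SE 0.08, adjusted p = 0.00369) in M11 and -0.46 (SE 0.08, adjusted p = 8.14e-05) in M12. Parental cells were lower still, with 13.2, 13.4 and 14.7 CPM, and against them Tgfbr2 was higher in both lines jointly, by 0.56 (SE 0.08, adjusted p = 3.69e-06). Tgfbr1, its partner, had 14.2, 13.4 and 14.9 CPM in M11, 32.7, 29.5 and 29.1 CPM in M12, and 31.7, 26.7 and 29 CPM with empty vector. Every M11 library was lower than every M12 and empty vector library, and M12 overlapped empty vector, with changes of -1.04 (SE 0.10, adjusted p = 7.76e-08) in M11 and 0.06 (SE 0.10, adjusted p = 0.609) in M12. Smad7, the feedback inhibitor of the pathway, fell, with changes of -0.50 (SE 0.15, adjusted p = 0.0101) in M11 and -0.97 (SE 0.15, adjusted p = 1.78e-05) in M12; its M11 call was lost without M11 replicate 1 (adjusted p = 0.0512). Among 30 tested genes of the TGF-β and BMP pathways, 5 rose (16.7%) and 10 fell (33.3%) in both lines, against 19.5% and 18% of all genes tested, and those that rose were 3 without M12 replicate 3 or without empty vector replicate 2.

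Cell cycle genes were more often lower than higher. Of 48 tested, 24 fell in both lines (50%, against 18% of all genes tested) and 0 rose in both (against 19.5%). In M11 alone 2 rose, and 3 in M12 alone. Medians were -0.27 in M11 and -0.34 in M12. E2f2, a transcription factor of S phase entry, had 25.4, 22.4 and 28.2 CPM in M11, 13.5, 16.4 and 16.9 CPM in M12, and 47.1, 46.4 and 47.1 CPM with empty vector, and fell, with changes of -0.89 (SE 0.10, adjusted p = 6e-07) in M11 and -1.58 (SE 0.10, adjusted p = 1.17e-10) in M12. Cdc6, a licensing factor of replication, had 34.7, 33.6 and 42.9 CPM in M11, 34.5, 31.4 and 33.4 CPM in M12, and 63.3, 58.3 and 65.8 CPM with empty vector, and fell, with changes of -0.76 (SE 0.15, adjusted p = 0.000244) in M11 and -0.92 (SE 0.15, adjusted p = 1.99e-05) in M12. Mybl2, an activator of late cell cycle genes, had 80.8, 64.1 and 99.5 CPM in M11, 81.2, 54.5 and 76.7 CPM in M12, and 139.7, 131 and 133 CPM with empty vector, and fell, with changes of -0.73 (SE 0.19, adjusted p = 0.00366) in M11 and -0.93 (SE 0.19, adjusted p = 0.00037) in M12. These falls were under 2-fold except that of E2f2 in M12. All 6 tested genes of the Mcm replicative helicase, Mcm2 to Mcm7, fell in both lines. The list's median was 0 for both lines jointly minus parental and 0.38 for empty vector minus parental. With protein-coding genes alone scaled and tested, 1 cell cycle gene rose in both lines.

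Chromatin and DNA methylation genes were lower in both lines in 16 of 50 (32%) and higher in 3 (6%), or in 1 without empty vector replicate 2. Over all genes tested the shares were 18% and 19.5%. The median of this list was 0.09 for both lines jointly minus parental and 0.26 for empty vector minus parental. Nsd1, a histone H3 lysine methyltransferase, had 2.05, 2.35 and 3.01 CPM in M11, 0.475, 0.0859 and 0.221 CPM in M12, and 11.4, 11 and 10.5 CPM with empty vector, and fell, with changes of -2.17 (SE 0.29, adjusted p = 4.88e-06) in M11 and -5.48 (SE 0.38, adjusted p = 2.78e-10) in M12. Parental cells had 13.3, 11.8 and 11.9 CPM, above every empty vector library. Ezh2, the catalytic subunit of the Polycomb complex, fell, with changes of -0.56 (SE 0.11, adjusted p = 0.000329) in M11 and -1.08 (SE 0.11, adjusted p = 8.75e-08) in M12, and Dnmt1, the maintenance DNA methyltransferase, fell, with changes of -0.43 (SE 0.11, adjusted p = 0.00303) in M11 and -0.48 (SE 0.11, adjusted p = 0.00105) in M12. Kdm5b, a histone demethylase, rose by 0.80 (SE 0.12, adjusted p = 8.9e-06) in M11 and 1.45 (SE 0.12, adjusted p = 1.9e-09) in M12. NRF2 and ATF4 targets were lower in both lines in 13 of 40 (32.5%) and higher in 1 (2.5%), against the same 18% and 19.5%. Slc7a3, an arginine transporter, had 3.23, 1.97 and 1.83 CPM in M11, 2.38, 2.04 and 2.4 CPM in M12, and 12.1, 13.7 and 9.57 CPM with empty vector, and fell, with changes of -2.30 (SE 0.21, adjusted p = 3.08e-08) in M11 and -2.37 (SE 0.21, adjusted p = 6.8e-09) in M12.

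Germline genes included several that were nearly silent with empty vector. Of 41 listed, 15 were tested, and 12 had no read in the 9 libraries. Of the 15 tested, 5 rose (33.3%) and 1 fell (6.67%) in both lines, against 19.5% and 18% of all genes tested. Without parental replicate 1, 2 fell. Members with few reads in every group were left out by the filter, so these shares hold for expressed members only. Dppa2, a chromatin protein of early embryos, had 2.69, 3.79 and 3.09 CPM in M11, 16.8, 15.9 and 16.7 CPM in M12, and 0.188, 0.082 and 0.159 CPM with empty vector, and rose by 4.35 (SE 0.20, adjusted p = 2.64e-12) in M11 and 6.72 (SE 0.19, adjusted p = 3.58e-16) in M12. Parental cells had 5.97, 4.79 and 5.34 CPM, above every M11 library. Spo11, which makes meiotic DNA breaks, had 2.89, 2.19 and 1.79 CPM in M11, 2.79, 2.28 and 1.63 CPM in M12, and 0.0627, 0.164 and 0.0264 CPM with empty vector, and rose by 4.82 (SE 0.44, adjusted p = 1.74e-07) in M11 and 4.77 (SE 0.44, adjusted p = 8.91e-08) in M12. Piwil2, a PIWI protein of the male germline, had 3.14, 2.6 and 2.69 CPM in M11, 3.74, 4.73 and 1.83 CPM in M12, and 0.326, 0.383 and 0.528 CPM with empty vector, and rose by 2.80 (SE 0.37, adjusted p = 3.03e-06) in M11 and 3.09 (SE 0.36, adjusted p = 4.3e-07) in M12. Lin28b, an RNA-binding regulator of stem cells, fell, with changes of -2.74 (SE 0.32, adjusted p = 1.52e-06) in M11 and -2.02 (SE 0.30, adjusted p = 1.12e-05) in M12.

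**Figure D3:**
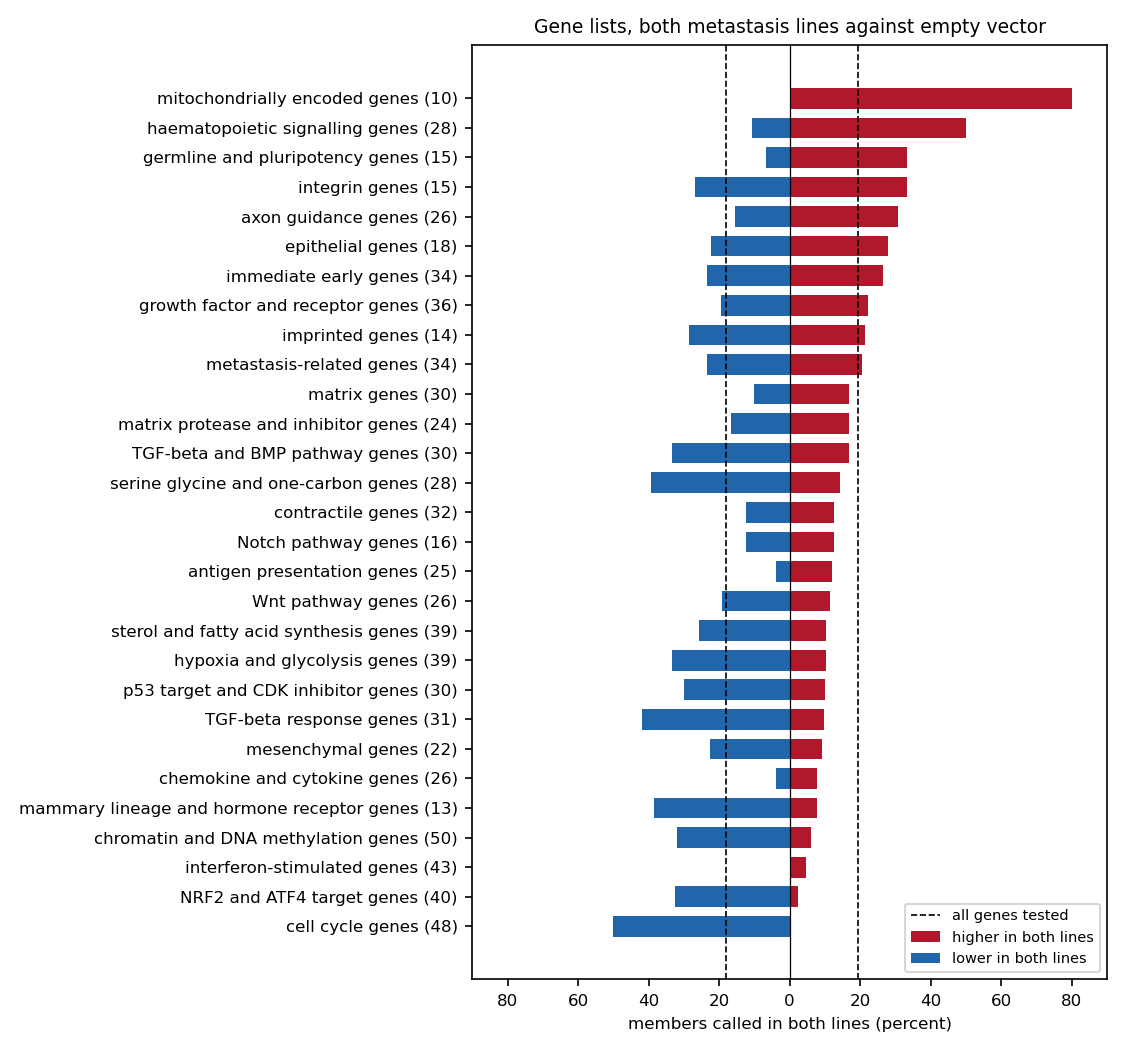
Share of the tested members of each of 29 gene lists (number tested in brackets) that were past the threshold in both lines, higher to the right in red and lower to the left in blue. Dashed lines mark the shares over all genes tested, 19.5% higher and 18% lower; blood cell signalling and mitochondrially encoded genes lie furthest right and cell cycle genes furthest left.

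Matrix and adhesion genes outside these groups changed in both directions. Col6a3, a collagen VI chain, had 372, 387 and 404 CPM in M11, 93.9, 94.5 and 124 CPM in M12, and 50.4, 37.3 and 43.2 CPM with empty vector, and rose by 3.15 (SE 0.18, adjusted p = 2.15e-10) in M11 and 1.25 (SE 0.17, adjusted p = 4.26e-06) in M12. Tnc, tenascin C, had 3.85, 3.13 and 4.23 CPM in M11, 2.26, 0.859 and 1.3 CPM in M12, and 13.2, 9.29 and 14.2 CPM with empty vector, and fell, with changes of -1.72 (SE 0.28, adjusted p = 4.7e-05) in M11 and -3.09 (SE 0.30, adjusted p = 5.07e-08) in M12. Vcan, the proteoglycan versican, had 87.5, 84.4 and 96 CPM in M11, 41.5, 34.8 and 55.1 CPM in M12, and 193, 134 and 193 CPM with empty vector, and fell, with changes of -0.96 (SE 0.17, adjusted p = 0.000147) in M11 and -1.98 (SE 0.18, adjusted p = 2.57e-08) in M12. Adam19, a membrane protease, had 2.94, 2.16 and 2.85 CPM in M11, 46.3, 27.1 and 27.2 CPM in M12, and 0.0251, 0 and 0.106 CPM with empty vector, and rose by 5.99 (SE 0.47, adjusted p = 1.29e-07) in M11 and 9.65 (SE 0.43, adjusted p = 1.25e-10) in M12. Itga1, a collagen-binding integrin chain, had 9.37, 13.6 and 9.2 CPM in M11, 9.6, 11.8 and 12.2 CPM in M12, and 50.9, 38 and 48.4 CPM with empty vector, and fell, with changes of -2.09 (SE 0.17, adjusted p = 5.65e-09) in M11 and -2.03 (SE 0.17, adjusted p = 2.85e-09) in M12. Every one of these genes separated the 6 metastasis libraries from the 3 empty vector libraries. Parental Col6a3 was lower still, at 2.83, 2.46 and 1.7 CPM. Parental Vcan, at 38.6, 36.6 and 43.6 CPM, was also below every empty vector library. Against parental cells Vcan was higher in both lines jointly, by 0.66 (SE 0.15, adjusted p = 0.00151). For Tnc and Itga1 every parental library lay above every metastasis library, and for Adam19 below. Slit1, a secreted guidance cue, had 26.4, 30.1 and 33.7 CPM in M11, 14.1, 13.6 and 13.1 CPM in M12, and 1.4, 1.31 and 1.11 CPM with empty vector, and rose by 4.54 (SE 0.19, adjusted p = 7e-13) in M11 and 3.4 (SE 0.18, adjusted p = 6.79e-12) in M12.

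Some genes put the metastasis lines on opposite sides of empty vector. Tex19.2, a germ cell gene, had 0.111, 0.188 and 0.122 CPM in M11, 24.5, 25.2 and 22 CPM in M12, and 5.17, 5.41 and 3.91 CPM with empty vector. S100a4, a calcium-binding protein studied in metastasis, had 300.1, 415 and 239 CPM in M11, 17.2, 10.4 and 18.6 CPM in M12, and 61.8, 66.4 and 39.9 CPM with empty vector. Gnao1, the G protein subunit αo, had 17.8, 18.4 and 22 CPM in M11, 1.96, 1.05 and 1.17 CPM in M12, and 4.11, 3.88 and 6.55 CPM with empty vector. Tle2, a Groucho corepressor, had 10.7, 13.7 and 8.18 CPM in M11, 0.208, 0.258 and 0.75 CPM in M12, and 2.47, 4.32 and 3.22 CPM with empty vector. M11 was above empty vector and M12 below it for S100a4, Gnao1 and Tle2, and the reverse held for Tex19.2, without overlap in any of them. Changes were -5.10 (SE 0.22, adjusted p = 7e-13) in M11 and 2.30 (SE 0.12, adjusted p = 6.39e-12) in M12 for Tex19.2, 2.51 (SE 0.23, adjusted p = 1.5e-07) in M11 and -1.87 (SE 0.23, adjusted p = 2.36e-06) in M12 for S100a4, 2.00 (SE 0.22, adjusted p = 4.51e-07) in M11 and -1.81 (SE 0.24, adjusted p = 2.32e-06) in M12 for Gnao1 and 1.72 (SE 0.34, adjusted p = 0.000336) in M11 and -2.98 (SE 0.42, adjusted p = 7.23e-06) in M12 for Tle2. The lines also differed in interferon-stimulated genes, which respond to antiviral cytokines. Of 43 tested, 27 were higher in M11 than in M12 and 0 lower, against 17.7% and 17.8% of all genes tested. Against empty vector, 14 rose and 1 fell in M11, where 26.9% of all genes rose and 25.7% fell. In M12, 2 rose and 9 fell, where 31.2% of all genes rose and 29.5% fell. Medians of the list against empty vector were 0.98 in M11 and -0.68 in M12. Empty vector minus parental was -2.94 and both lines jointly minus parental -2.72, so by the list's median both were below parental cells. Medians do not show the spread between parental libraries, which for Oasl1 had 13.3, 5.29 and 2.24 CPM. In both lines 2 rose and 0 fell, where 19.5% of all genes rose and 18% fell. The 2 that rose in both were Oasl1 and Xdh, and 0 to 1 did so without M11 replicate 2 or 3, without M12 replicate 2 or without any 1 of the empty vector libraries.

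The libraries themselves differed in make-up as well as in these genes. Totals were 24208564 to 44091368 counts in the metastasis lines and 36052482 to 80780776 with empty vector, and the median SD between replicates was 0.136 in M11, 0.139 in M12 and 0.0793 with empty vector on the log2 scale. The share of mitochondrially encoded transcripts was 1.8 to 3.42% in M11 and M12, 0.861 to 1.07% with empty vector and 2.41 to 2.56% in parental cells. Long noncoding RNAs and TEC entries (GENCODE's class for loci that await experimental proof) were summed without 1 entry, Gm42418. They took 0.621 to 0.867% in the metastasis libraries, 0.432 to 0.479% with empty vector and 0.634 to 0.675% in parental cells. Gm42418 alone took 14% of parental replicate 1 and at most 0.0918% of any other library. Its reads stayed in the library totals, so the other shares of parental replicate 1 are lowered by it. The shares of pseudogenes, 3.31 to 4.44% against 2.56 to 2.86%, and of ribosomal protein genes, 6.6 to 8.79% against 6.04 to 6.42%, were also higher in the metastasis libraries than with empty vector. An exact two-sided permutation test of 6 against 3 libraries gave p = 0.0238 for each of the 4 shares, the smallest value that design allows. The test treats libraries as separate units, although they come from M11, M12 and a single empty vector line. It therefore describes these libraries and cannot speak for metastasis lines as a class. Parental libraries lay with or above the metastasis lines in each. Libraries with ZBTB18 overexpression held 0.525 to 1.09% mitochondrially encoded, 0.46 to 0.488% lncRNA and TEC, and 2.46 to 2.83% pseudogene counts. In these 3 shares they lay below the metastasis lines, near empty vector. Their ribosomal protein share, 5.76 to 7.25%, overlapped that of the metastasis lines. The part of the vector in these shares was not tested.

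Genes of those classes made up much of the higher set. Among separating genes that were higher, 650 were protein-coding (5.26% of those tested), 321 were lncRNAs (28.1%), 134 were TEC (39.4%) and 157 were processed pseudogenes (11.9%). Among those that were lower the counts were 278 (2.25%), 15 (1.31%), 2 (0.588%) and 11 (0.833%). Median log2 fold changes of lncRNAs were 0.83 in M11 and 0.79 in M12, and empty vector minus parental was -0.53. Of 10 tested mitochondrially encoded genes, 8 rose in both lines (80%, against 19.5% of all genes tested). Among them mt-Nd4 rose by 1.54 (SE 0.19, adjusted p = 2.02e-06) in M11 and 1.60 (SE 0.19, adjusted p = 6.89e-07) in M12. The part of library make-up in the counts of higher and lower genes was not tested. With protein-coding genes alone scaled and tested, the separating genes that were higher numbered 694.

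**Figure D4:**
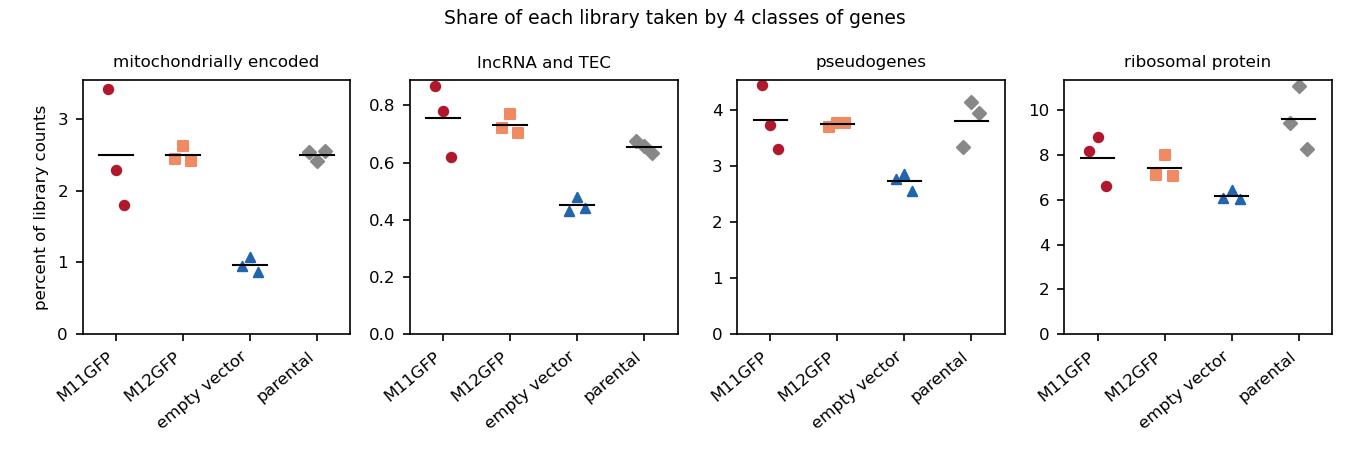
Percent of each library's counts in mitochondrially encoded genes, lncRNA and TEC genes (without Gm42418), pseudogenes and ribosomal protein genes, for M11, M12, empty vector and parental cells. Each point is 1 library and each bar a mean of 3; the empty vector libraries are lowest in every panel.

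Position on the chromosomes was also uneven. Over 10815 protein-coding genes of at least 1 CPM, 14.9% were higher in both lines and 22.8% lower. On chromosome 19, 41.4% of 401 genes were higher and 4.49% lower, with medians of 0.23 in M11 and 0.32 in M12. The share was 49% of 208 genes in the first 20000000 bases, 31.2% of 64 genes from there to base 40000000, where Gldc lies, and 34.2% of 120 genes from there to base 60000000, where Pik3ap1, Cfap58 and Slit1 lie. On chromosome 13, 45.2% of 389 genes were lower, with medians of -0.33 in M11 and -0.29 in M12. Empty vector minus parental was 0.3 there, and both lines minus parental -0.03. Chromosome 15 had 38.7% of 444 genes lower, with medians of -0.23 in M11 and -0.24 in M12. Copy number was not measured, and its part in these medians was not tested.

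**Figure D5:**
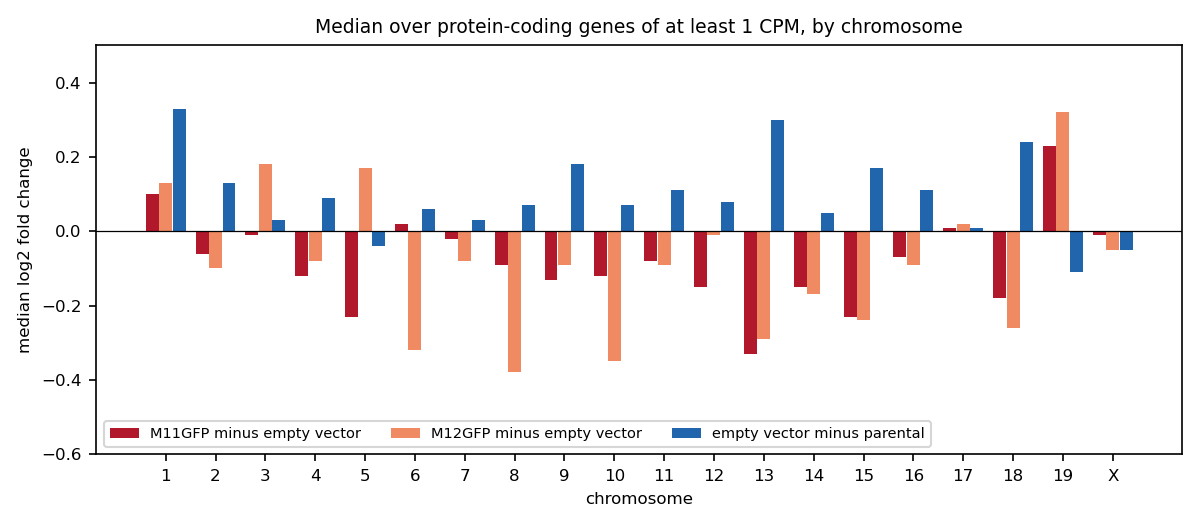
Median log2 fold change over protein-coding genes of at least 1 CPM on each chromosome, for M11 minus empty vector, M12 minus empty vector and empty vector minus parental. Chromosome 19 is highest in both lines at 0.23 and 0.32, and on chromosome 13 the lines are at -0.33 and -0.29 while empty vector minus parental is 0.3.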

How the data were processed

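RNA was measured in 21 libraries of 7 groups, 3 each, and 9 of them make this comparison. The authors deposited expected counts per gene from RSEM, not normalised, which were rounded here; 1.28% of values were not whole within a tolerance of 1e-06. The authors also deposited TPM, which RSEM scales by gene length and to a fixed sum, used here only in alternatives. STAR 2.7.1a, RSEM, Trim Galore and GATK 4.1.2.0 are named in the submitters' processing notes, with build mm10; their settings and the use of strand are not given in the sources used here. The table held 55573 genes, and 92 spike-in entries with 0 counts were left out. Gene positions came from GENCODE vM21, and 99.99% of tested genes had one.

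The tests used edgeR 4.0.16 (R 4.3.3). Libraries were scaled by TMM and genes with few counts removed by filterByExpr with the groups, before a two-sided quasi-likelihood F-test with robust spread, with 1 mean per group over 21 libraries (14 residual degrees of freedom). The joint contrast was the mean of M11 and M12 minus empty vector. SE is the absolute log2 fold change divided by the square root of F. Fold bounds use 3 counts over the group as the floor and cover counting error only, since the reads carry no molecular identifiers. The scripts were tested on simulated data. The deviations of same-numbered M11 and M12 libraries from their group means correlated at 0.229, 0.481 and 0.326, so the numbers were taken to pair M11 with M12; no difference between M11 and M12 among those listed in the closing section lost its call with a replicate block.

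Named genes were Pik3ap1, Hcls1 and Gldc; Zbtb18, Tgfbr2 and Tgfbr1; the 12 highest and 12 lowest separating genes by the smaller fold change of both lines, with a mean of at least 5 CPM in both lines (higher) or in empty vector (lower) and an official name; up to 4 members of each of 33 gene lists; and the 4 strongest genes called in opposite directions. Of the separating genes, 206 higher and 112 lower were eligible. Vim, Epcam and Krt8 served to check the cells; Lcp1, Coro1a, Fermt3, Was, Vav1, Lcp2, Pou2af1, Gcsh, Dld, Shmt2, Psat1, Phgdh, Ccn2, Ezh2, Dnmt1, the Mcm genes, Cd68 and the markers near 0 were named after their values were seen. The members and lists were chosen with earlier results of these data known. Alternatives were DESeq2 1.42.0 as test or size factors, limma 3.58.1 with voom or on log2(TPM + 1) and log2(TPM + 0.1), other filters, the 9 libraries alone, a replicate block, each library left out and, chosen after seeing the data, parental replicate 1 left out and protein-coding genes only. Promoter windows were matched for 78% of tested protein-coding genes, under the share needed to compare gene sets, so that comparison is void.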

Additional observations from a re-analysis of the deposited data

Results flagged for a closer look

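The effect against the shared empty vector reference differed between the lines, by the test of M11 minus M12 itself (edgeR's quasi-likelihood test, Benjamini-Hochberg over all genes, 3 libraries each), for 19 of the genes described. Among genes higher than empty vector in both lines, the log2 difference M11 minus M12 was -1.5 (SE 0.21, adjusted p = 8.35e-06) for Pik3ap1, -0.91 (SE 0.23, adjusted p = 0.004) for Hcls1, -1.65 (SE 0.28, adjusted p = 9.66e-05) for Gldc, -1.18 (SE 0.24, adjusted p = 0.000514) for Faim2, -1.08 (SE 0.30, adjusted p = 0.00796) for Bmp7, -0.95 (SE 0.26, adjusted p = 0.00708) for Cfap58, -1.35 (SE 0.15, adjusted p = 4.72e-07) for Sla2, -0.59 (SE 0.19, adjusted p = 0.0201) for Loxl2 and -1.25 (SE 0.15, adjusted p = 1.85e-06) for Itgb2, each higher in M12. It was 0.78 (SE 0.24, adjusted p = 0.0151) for Lrmp and 0.87 (SE 0.23, adjusted p = 0.00505) for Pcdhgb1, which were higher in M11.

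Among genes lower than empty vector in both lines, M12 was below M11 for Fam49a by 1.40 (SE 0.23, adjusted p = 6.67e-05), Aqp1 by 0.97 (SE 0.28, adjusted p = 0.0128), Abcg2 by 1.44 (SE 0.25, adjusted p = 0.000147) and Ctsh by 3.56 (SE 0.40, adjusted p = 1.09e-06). The genes on opposite sides of empty vector gave -7.41 (SE 0.20, adjusted p = 1.28e-16) for Tex19.2, 4.37 (SE 0.25, adjusted p = 8.02e-10) for S100a4, 3.82 (SE 0.25, adjusted p = 3.56e-10) for Gnao1 and 4.70 (SE 0.42, adjusted p = 7.75e-08) for Tle2. All 3 M11 libraries lay on one side of all 3 M12 libraries for each of the 19 genes except Loxl2. The differences of Loxl2, Lrmp, Bmp7 and Abcg2 lost their call under at least 1 alternative. Loxl2 had an adjusted p of 0.0586 with the 9 libraries alone, 0.09 without M11 replicate 1, 0.0575 without M11 replicate 2, 0.0917 without M12 replicate 1 and 0.122 without M12 replicate 3. Abcg2 had 0.163 and 0.0829 with limma on log2(TPM + 1) and log2(TPM + 0.1). Lrmp had 0.104 with log2(TPM + 0.1), 0.0556 without M11 replicate 1 and 0.0714 without M12 replicate 3, and Bmp7 had 0.0507 without M11 replicate 1.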

How the results depend on the processing

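Counts of called genes over the whole table stayed within 1.5 times under both DESeq2 settings, limma-voom, no filter, the 9 libraries alone and each of the 9 libraries left out in turn, as well as without parental replicate 1 (chosen after seeing the data). Other settings moved these counts further. With a filter of 1 CPM in 3 libraries the separating genes were 855 higher and 209 lower, with fewer genes tested. With limma on log2(TPM + 1), 2731 genes were higher in M11 and 1959 in both lines, and separating genes were 239 higher and 151 lower; the larger pseudocount shrinks low genes. With log2(TPM + 0.1) they were 799 higher, and M11 was above M12 in 1813; the cause was not tested. With protein-coding genes only, chosen after seeing the data, they were 694 higher, again with fewer genes tested. Separating genes ranged from 239 to 1387 higher and 151 to 356 lower over all settings. The 24 leading genes kept their calls in 960 of 960 values. They were picked from these same libraries for large changes without overlap, so this is no independent support. Of 285 calls of named genes, 27 were lost with log2(TPM + 1), 20 with log2(TPM + 0.1), 16 without empty vector replicate 1 and at most 12 under any other setting; 1 CPM in 3 libraries left 249 with a value. Uncalled values that changed sign were Vim in M11 (-0.091 with both TPM settings) and Tgfbr1 in M12 (-0.004 to 0.123 with 1 library left out). Same-numbered libraries correlated in their deviations at -0.085, 0.152 and 0.146 (M11 with empty vector) and 0.138, 0.108 and -0.093 (M12), so numbers do not pair the lines with empty vector; with the replicate block, separating genes were 1302 higher and 318 lower, and genes called in both lines 3120 higher and 2961 lower, while 3 of the 285 calls were lost. Counts within gene lists of few members moved further, as given beside several of them; genes of the TGF-β and BMP pathways that rose were 1 and 2 with the 2 TPM settings, and lung markers that rose were 1 with the DESeq2 test, no filter or the 9 libraries alone. Depth limits genes with few reads in a group: against 0 reads the fold is a bound, and with a handful the fitted fold depends on the prior count.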

Other observations

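Several genes of other signalling pathways separated both lines from empty vector. Kdr, the main VEGF receptor, had no read with empty vector and was at least 6.08-fold higher in M11 and 41.3-fold higher in M12, with the floor of 3 counts over the group, though its level stayed at or below 1.05 CPM. Mst1r, the receptor for macrophage-stimulating protein, had 1.98, 2.44 and 1.59 CPM in M11, 6.03, 8.61 and 4.28 CPM in M12, and 0.314, 0.547 and 0.555 CPM with empty vector. Igf2r, the imprinted receptor that clears IGF2, had 44.5, 52.7 and 52.8 CPM in M11, 32.6, 45.6 and 34 CPM in M12, and 18.5, 15.1 and 16.5 CPM with empty vector. The antisense transcript of that locus, Airn, had 4.05, 4.32 and 3.01 CPM in M11, 2.29, 3.61 and 2.91 CPM in M12, and 1.35, 1.09 and 1.19 CPM with empty vector. Both Igf2r and Airn rose, with changes of 1.58 (SE 0.14, adjusted p = 2.76e-08) in M11 and 1.16 (SE 0.14, adjusted p = 6.16e-07) in M12 for Igf2r and 1.64 (SE 0.26, adjusted p = 2.91e-05) in M11 and 1.27 (SE 0.26, adjusted p = 0.000268) in M12 for Airn; the genes overlap on opposite strands, and the use of strand in counting is not given, so their reads may not be told apart. Slc22a18, an imprinted transporter on chromosome 7, had 0.512, 0.72 and 0.692 CPM in M11, 1.49, 2.3 and 2.23 CPM in M12, and 5.57, 8.39 and 5.39 CPM with empty vector, against 13.1, 14.3 and 9.15 CPM in parental cells.

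Feedback and immediate early factors moved in both directions. Spry4, an inhibitor of receptor tyrosine kinase signalling, had 61, 69.6 and 70.1 CPM in M11, 106, 94.7 and 89.7 CPM in M12, and 23, 23.2 and 25.9 CPM with empty vector, and rose by 1.48 (SE 0.10, adjusted p = 5.77e-10) in M11 and 2.01 (SE 0.10, adjusted p = 2.23e-12) in M12. Jund, an AP-1 subunit, had 30.1, 25.8 and 43.2 CPM in M11, 37.1, 36.9 and 34.9 CPM in M12, and 85.5, 96.1 and 96.1 CPM with empty vector, with changes of -1.49 (SE 0.15, adjusted p = 1.98e-07) in M11 and -1.35 (SE 0.15, adjusted p = 3.03e-07) in M12. Wnt5a, a noncanonical Wnt ligand, was under 1 CPM in M11 and had 4.69, 6.96 and 5.45 CPM in M12, with at most 0.0376 CPM with empty vector. Axin2, a target of canonical Wnt signalling, fell, with changes of -1.46 (SE 0.25, adjusted p = 6.79e-05) in M11 and -2.20 (SE 0.26, adjusted p = 4.16e-07) in M12. Jag2, a Notch ligand, had 0.579, 0.658 and 0.611 CPM in M11, 0.743, 1.1 and 1.06 CPM in M12, and 4.7, 5.66 and 3.75 CPM with empty vector, and Cx3cl1, a membrane-bound chemokine, had 4.05, 2.38 and 3.62 CPM in M11, 3.98, 3.52 and 3.49 CPM in M12, and 18.1, 15.1 and 19.9 CPM with empty vector. Both were lower in every metastasis library than with empty vector, while parental cells had 1.19, 0.935 and 0.369 CPM for Jag2 and 1.84, 1.98 and 3.21 CPM for Cx3cl1. Il33, an alarmin cytokine, had 3.32, 3.41 and 2.48 CPM in M11, 1.43, 1.07 and 0.331 CPM in M12, and 0.138, 0.355 and 0.0528 CPM with empty vector, and rose by 4.13 (SE 0.56, adjusted p = 5.2e-06) in M11 and 2.40 (SE 0.58, adjusted p = 0.00132) in M12. Esr1, the oestrogen receptor, was at most 0.953 CPM in any of the 9 libraries.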
